A study of Mus musculus with 6 samples.

Results

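Cytosolic ribosomal protein genes encode the proteins that, with ribosomal RNA, build the small and the large subunit of the ribosome outside mitochondria. They were taken from the platform annotation as every probe set with a single gene symbol that begins with Rpl or Rps followed by a digit or the letter a, or that is Rplp0, Rplp1 or Rplp2. The Rps6k kinases, pseudogene symbols and Rik symbols were left out. This gave 106 of 45265 probe sets and 50 of 18194 genes, chosen by name and not by level. A further 112 probe sets that bear a ribosomal protein symbol together with others were not used, and Rpl3, Rpl5, Rplp1 and other family members with no probe set under this rule were not analysed here. Of the 50 genes, 21 encode proteins of the small subunit, 20 encode proteins of the large subunit and 2 (Rplp0 and Rplp2) encode proteins of the P stalk. A further 5 are paralogs of standard members (Rpl3l, Rpl22l1, Rpl39l, Rps4l and Rps27l). The other 2, Rpl7l1 and Rps19bp1, match the naming rule but are not known as proteins of the mature ribosome.

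Liver RNA was hybridised to Affymetrix mouse genome arrays, on 6 arrays, so that each of 3 genotypes had 1 array of design 430A and 1 of design 430B. LT livers came from ApoErtTA:TRE2-TAg mice induced to make the SV40 large T antigen with small t. 17kT livers came from ApoErtTA:TRE2-TAg mice induced to make 17kT, a short spliced form of the antigen, with small t. WT livers came from mice with no transgene, which therefore also lacked ApoErtTA, so its effect and that of the viral proteins cannot be told apart in comparisons with WT. All were male B6SJL hybrids of 32 to 37 days, and all, WT included, had drunk 25 µg/ml doxycycline with 2.5% sucrose for 4 days. Large T binds the retinoblastoma family and p53, whereas 17kT keeps the retinoblastoma binding motif and lacks the region that binds p53. The labels do not say how many animals gave each RNA. With 1 array per genotype and design, no difference below has a replicate check or a test, and precision is limited by the number of arrays.

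A cell makes its ribosomal proteins in matched amounts, and their messages are among the most abundant in any growing cell. Most of these messages begin with a terminal oligopyrimidine tract, known as TOP, through which the kinase mTOR and the RNA-binding protein Larp1 control how well they are translated. That control acts mainly on translation and is not seen by an array of total RNA. In liver, ribosome production is known to go up when hepatocytes leave rest and grow. Unassembled Rpl5 and Rpl11, joined in a particle with the 5S RNA, are known to bind Mdm2 and so to stabilise p53.

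Depth in the usual sense does not apply to arrays. The deposited signals were linear intensities that the authors had already scaled, with a 2% trimmed mean between 250.03 and 250.12 on each array. Here the signals were set to a common trimmed mean within a design and floored at the design's median signal, 90.4 on 430A and 140.5 on 430B. Where neither array of a comparison passes the floor, no direction is given. Where 1 of them does, the ratio is a bound, written "at least". Each gene is represented by 1 probe set, and a gene is called at 2-fold, a log2 ratio of 1. From 100 probe sets present on both designs, none of them for a ribosomal protein gene, the technical SD of a log2 ratio was 0.23 for LT over WT, 0.28 for 17kT over WT and 0.26 for LT over 17kT. That spread is technical and holds no difference between animals. It also leaves out any constant offset between designs. On the same probe sets, the log2 ratio on 430A minus that on 430B had a median of -0.25 for LT over WT. This median was 0.19 for 17kT over WT and -0.36 for LT over 17kT.

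Of the 106 probe sets, 83 were above the floor on all 3 arrays of their design, 4 on 2 arrays, 3 on 1 array and 16 on none. At the level of genes, 41 of 50 were above the floor on all arrays. Rpl12 and Rps25 were above it on the LT and 17kT arrays and below it on the WT array. The other 7 genes (Rpl3l, Rpl14, Rpl39l, Rpl41, Rps16, Rps20 and Rps24) were represented by probe sets at the floor on every array and have no direction. Rpl41, Rps20 and Rps24 also have probe sets of the _x_at kind, whose probes may bind several genes. All of these but 1 for Rpl41 were above the floor on all 3 arrays, and they are described further on.

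Start site sequence was available for 44 of the 50 genes, from RefSeq on the GRCm38.p6 build. A pyrimidine run was present in 34 of the 44 genes, 77.3%, against 28.7% of 27025 genes. Such a run was a C and at least 7 more C or T sense-strand bases, all within 50 bases of the annotated start. A C and 4 further pyrimidines stood exactly at the annotated start in 8 of the 44 (18.2%), against 2.49% of all genes. The following 30-base windows show the run of genes whose values the comparisons turn on, 5′ to 3′ on the sense strand, with the pyrimidine run in capitals.
Rplp2, chr7:141447642-141447671 (+): agcgtCTTCCTTTCgccgccggacgccgcc
Rpl12, chr2:32961732-32961761 (+): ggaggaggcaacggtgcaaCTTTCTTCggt
Rpl22, chr4:152325682-152325711 (+): tctgaCTCCTCCCTTTCCCgacagccgact
Rpl41, chr10:128549119-128549148 (-): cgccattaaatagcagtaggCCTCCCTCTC
Rps25, chr9:44407687-44407716 (+): ccgggCTTCCTTTTTTTCCgacatcttagc
Rps27, chr3:90213626-90213655 (-): tttcgCTCCTTTCCggcggtgacgacctcc
Rps27l, chr9:66946059-66946088 (+): ctccaCTCCTCTCCactcctccccgccgcc
Rps6, chr4:86857344-86857373 (-): tcgggCCTCTTTTTCgtgacgcctcccagg
For 2 genes that were called in LT against WT, no such run lay within that distance, and the windows at their annotated starts were these.
Rps3, chr7:99483695-99483724 (-): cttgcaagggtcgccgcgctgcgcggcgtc
Rpl7l1, chr17:46782642-46782671 (-): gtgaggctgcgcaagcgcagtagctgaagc
A run in a window is a match of letters to an annotated start and not a mapped start of transcription. Rps27 and its paralog Rps27l both had a run of 9 bases, so both genes of that pair hold this feature.

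Over 300 bases around the start (250 before and 50 after), the motif CCGGAAG, which ETS factors bind, was found on either strand in 21 of the 44 genes, 47.7%, against 9.12% of all genes. The motif AAGATGG, the core that Yy1 binds, was found in 7 genes, 15.9%, against 6.48%. TATAAA was found in 5 genes, 11.4%, against 14.2%. Among the called genes, Rplp2, Rps25 and Rps27l held CCGGAAG, and Rpl7l1 and Rps27 held AAGATGG. The windows of Rpl12 and Rps3 held neither. A match shows only that these letters are present. The presence of a pyrimidine run did not separate the members by ratio: the median log2 ratio of LT over WT was 0.61 in 28 measured genes with a run and 0.56 in 10 without. For 17kT over WT the medians were 0.24 with a run and 0.26 without.

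LT livers had higher signals than WT livers for nearly the whole family, by a small amount per gene. Of 43 measured ribosomal protein genes, 39 had a log2 ratio over 0, whereas 51.1% of 12776 measured genes did. The median log2 ratio of the members was 0.59, a 1.51-fold difference, with quartiles at 0.39 and 0.85, and the median of all measured genes was 0.02. At 2-fold, 5 members were higher (Rpl7l1, Rpl12, Rplp2, Rps3 and Rps4l), beside 11.1% of all measured genes, and 0 were lower, beside 9.01%. The share of members called higher, 11.6%, was thus close to that of all genes under the reported scaling. It was not under every scaling. With quantile normalization 11 of 44 were called higher, beside 9.68% of all genes, and with hybridisation controls 20 of 43, beside 22.1%. With scaling to probe sets on both designs the share was smaller than that of all genes, 2 of 44 beside 6.18%. At 1.5-fold under the reported scaling, 22 of 43 members were higher, a larger share than the 23.1% of all genes. Only 1 of 43 (Rps27) was lower, a smaller share than the 20.1% of all genes. At 3-fold, 1 member (Rpl7l1) was higher, beside 3.79%, and 0 were lower, beside 3.35%. The median of the family was reached or passed by 22.8% of all measured genes. Among genes above the floor on all 3 arrays, the medians were 0.54 for 41 members and 0.07 for 9784 genes.

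**Figure D1:**
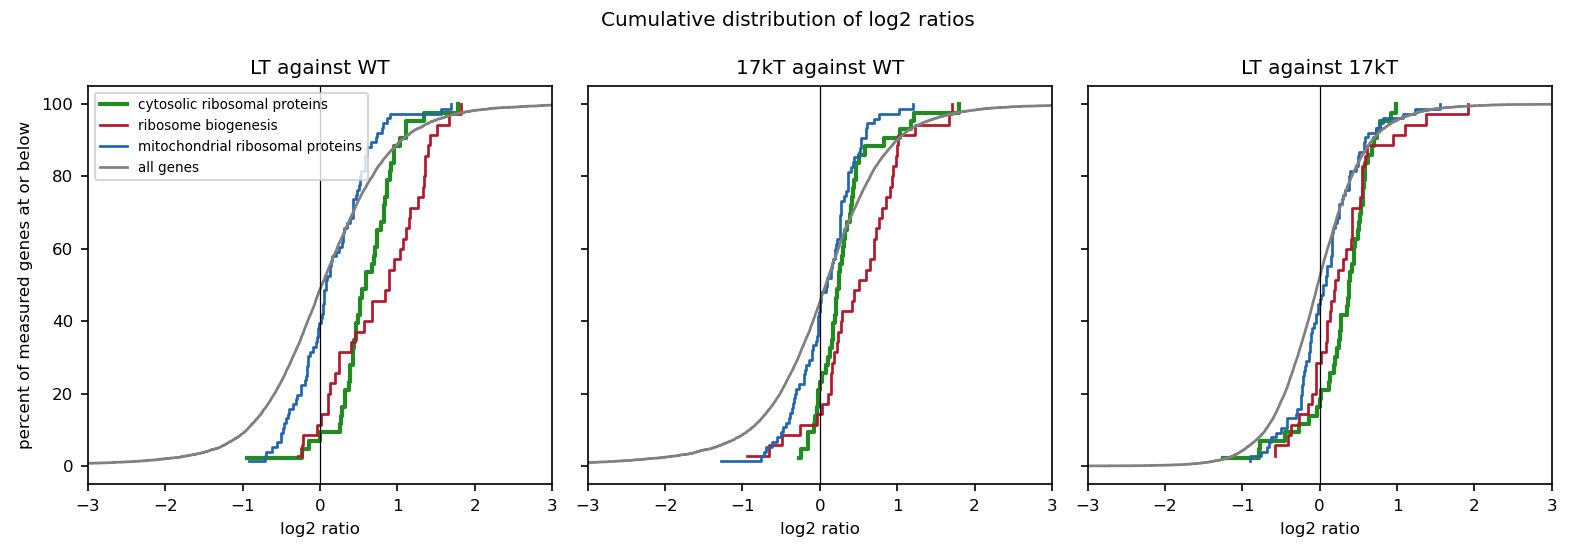
Cumulative percent of measured genes (vertical axis) at or below each log2 ratio (horizontal axis) for cytosolic ribosomal proteins, ribosome biogenesis genes, mitochondrial ribosomal proteins and all genes, in 3 comparisons of single arrays. In LT against WT the cytosolic ribosomal protein curve lies right of that of all genes, with a median of 0.59 against 0.02, and the mitochondrial curve has a median of 0.08.

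The small subunit had a median log2 ratio of LT over WT of 0.60 over 18 measured genes, 16 of them over 0. Rps3, which sits near the mRNA entry channel, had signals of 9686 in LT, 5957 in 17kT and 4478 in WT livers. Its signal in LT was 2.16-fold that in WT, a log2 ratio of 1.11, and 17kT lay between them. Rps7, a protein known to bind Mdm2, had signals of 5909 in LT, 4296 in 17kT and 3251 in WT livers, with a log2 ratio of 0.86 for LT over WT. Rps3a1 had signals of 9032 in LT, 6002 in 17kT and 5059 in WT livers, a log2 ratio of 0.84. LT was the highest array and WT the lowest for each of these genes. Rpsa, a small subunit protein also known as a laminin receptor, had signals of 5359 in LT, 3471 in 17kT and 3541 in WT livers. Here LT alone was high, with a log2 ratio of 0.60 over WT and 0.63 over 17kT, and 17kT and WT differed by -0.03.

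Other small subunit genes departed from that order. Rps19, the gene most often mutated in human Diamond-Blackfan anaemia, had signals of 1524 in LT, 1564 in 17kT and 883.4 in WT livers. Both transgenic livers were high, with log2 ratios of 0.79 for LT over WT and 0.82 for 17kT over WT. Rps6, the protein phosphorylated by S6 kinases, had signals of 228.2 in LT, 225.2 in 17kT and 229.1 in WT livers, so the 3 arrays were nearly level. These signals were low beside those of most members, against a floor of 90.4. A second Rps6 probe set was at the floor on every array. Rps25, a small subunit protein that some viral messages need for their translation, had 170.6 in LT, 205.2 in 17kT and 65.0 in WT livers, where it was under the floor. It was at least 1.89-fold higher in LT and at least 2.27-fold higher in 17kT than in WT.

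Rps27 was the member with the lowest ratio of LT over WT. This zinc-binding small subunit protein had signals of 127.3 in LT, 301.5 in 17kT and 245.3 in WT livers. LT was the low array, with a log2 ratio of -0.95 against WT, just short of 2-fold, and of -1.24 against 17kT. These values come from 1 probe set near the floor, and Rps27 probe sets that bear other symbols too were not used. The remaining small subunit genes above the floor (Rps2, Rps4x, Rps9, Rps10, Rps14, Rps15, Rps18, Rps26, Rps28 and Rps29) had log2 ratios of LT over WT between 0.27 and 0.74.

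The large subunit had a median log2 ratio of LT over WT of 0.62 over 18 measured genes, 17 of them over 0. Rpl8, which lies close to the peptidyl transferase centre, had signals of 4495 in LT, 2611 in 17kT and 2319 in WT livers. LT was the high array, with log2 ratios of 0.95 over WT and 0.78 over 17kT, and 17kT exceeded WT by 0.17. Rpl35, which lies at the exit of the peptide tunnel, had signals of 1845 in LT, 1158 in 17kT and 990.1 in WT livers, with a log2 ratio of 0.90 for LT over WT. Rpl27 had signals of 2342 in LT, 1781 in 17kT and 1288 in WT livers, a log2 ratio of 0.86. Rpl11, partner of Rpl5 in the 5S particle, had signals of 2351 in LT, 1579 in 17kT and 1406 in WT livers, a log2 ratio of 0.74. As with Rpl8, the LT array stood above both others for Rpl35, Rpl27 and Rpl11, and 17kT was second.

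Rpl6 had signals of 10025 in LT, 7837 in 17kT and 5646 in WT livers, with log2 ratios of 0.83 for LT over WT and 0.47 for 17kT over WT. Rpl38, which in mouse embryos is needed to translate certain Hox messages, had signals of 5500.01 in LT, 3899 in 17kT and 3112 in WT livers, with log2 ratios of 0.82 for LT over WT and 0.33 for 17kT over WT. In each case LT was highest and WT lowest. Rpl12, at the base of the P stalk, had signals of 230.4 in LT, 121.9 in 17kT and 61.9 in WT livers, where it was under the floor. It was at least 2.55-fold higher in LT than in WT and 1.89-fold higher in LT than in 17kT.

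In the large subunit, the lowest log2 ratio of LT over WT was that of Rpl39, and it alone was under 0. Rpl39, a small protein that lines the exit tunnel, had signals of 146.5 in LT and 161.4 in both 17kT and WT livers. Its log2 ratio of LT over WT was -0.14, from 1 probe set near the floor of 90.4. Rpl7 had signals of 4222 in LT, 2801 in 17kT and 3370 in WT livers. LT was high and 17kT low for Rpl7, with log2 ratios of 0.33 for LT over WT and -0.27 for 17kT over WT. Rpl4, a protein of the exit tunnel wall, had signals of 12793 in LT, 9809 in 17kT and 8818 in WT livers, a log2 ratio of 0.54 for LT over WT. Rpl37, Rpl37a, Rpl27a and Rpl7a had log2 ratios of LT over WT between 0.26 and 0.38.

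The P stalk recruits elongation factors to the large subunit, with Rplp0 as its base and Rplp1 and Rplp2 as its arms. Rplp2 had signals of 5383 in LT, 3727 in 17kT and 2486 in WT livers. It was 2.16-fold higher in LT than in WT, a log2 ratio of 1.11, and 17kT lay between with 0.58 over WT. Rplp0 had signals of 6907 in LT, 6068 in 17kT and 5270.05 in WT livers. The order was the same for Rplp0, with smaller log2 ratios of 0.39 for LT over WT and 0.20 for 17kT over WT.

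**Figure D2:**
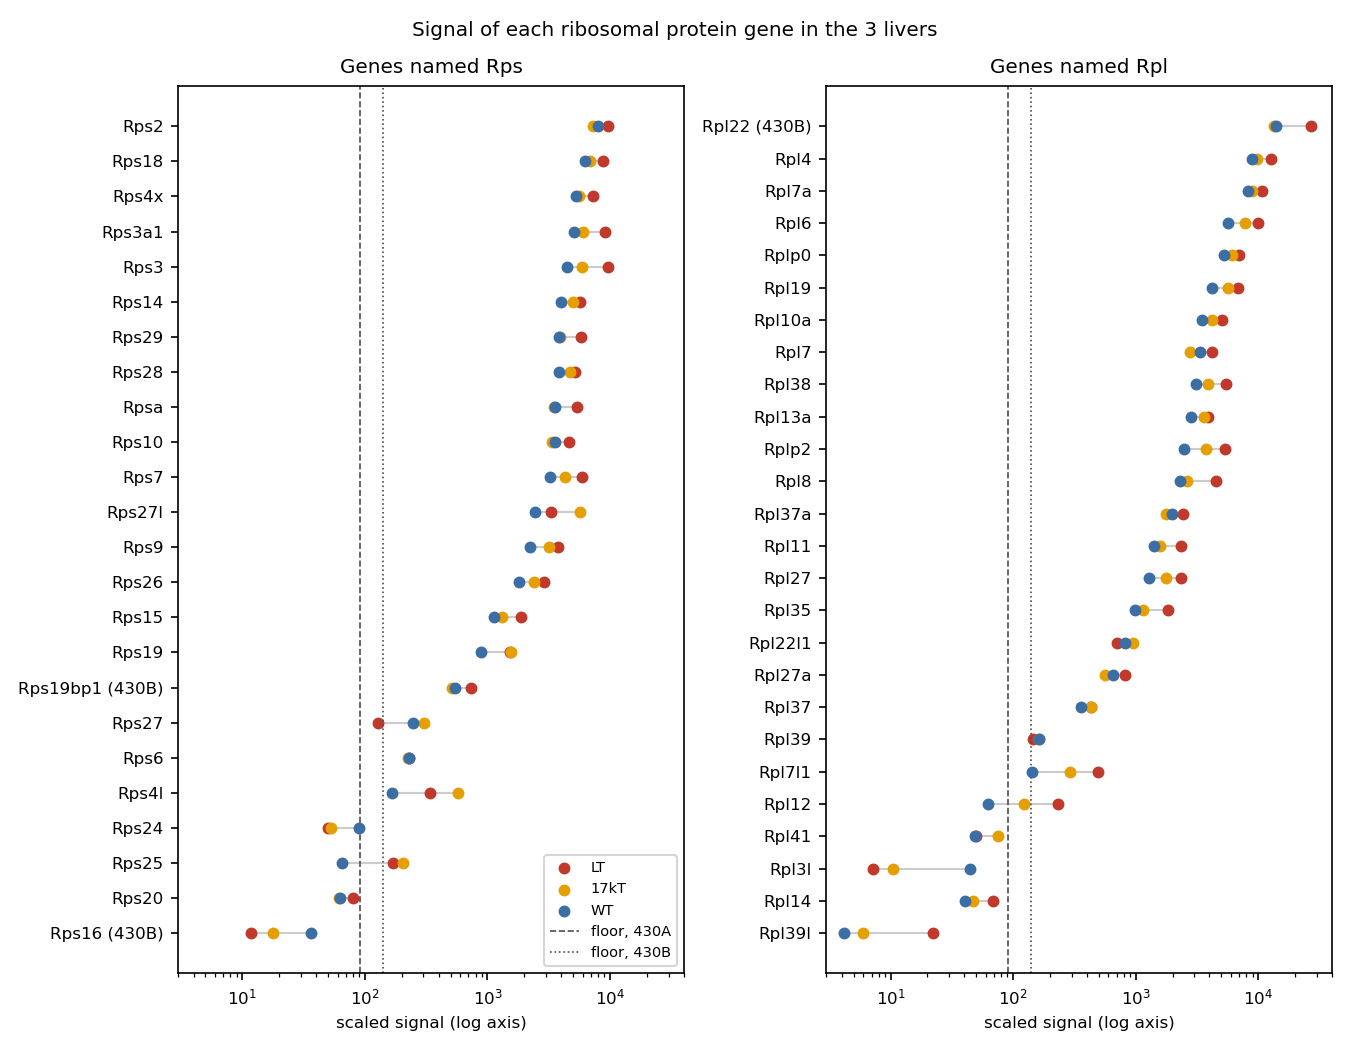
Scaled signal (log axis) of the probe set that represents each of the 50 genes in LT, 17kT and WT livers, 1 array each, with genes named Rps on the left and Rpl on the right, and the floors of the designs as vertical lines. LT is the highest point for most genes well above the floor. 17kT is highest for Rps27l and Rps4l, and LT is lowest for Rps27.

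17kT livers differed less from WT livers than LT livers did. Of 43 measured members, 34 had a log2 ratio over 0, beside 54.8% of 12993 measured genes. The median was 0.25, a 1.19-fold difference, beside 0.07 for all genes, and 39.5% of all genes reached or passed that median. At 2-fold, 4 members were higher (Rps4l, Rps27l, Rps25 and Rpl7l1), beside 9.97% of all genes, and 0 were lower, beside 8.64%. Of these 4, Rps25 is the only standard ribosomal protein, and its value is a bound against a WT signal under the floor. At 1.5-fold, 5 of 43 members were higher, Rps19 being the added one, a smaller share than the 22.7% of all genes. At that fold 0 were lower, beside 17.6%. At 3-fold, 1 (Rps4l) was higher, beside 3.36%, and 0 were lower, beside 3.91%. The small subunit had a median of 0.27 and the large subunit one of 0.20. Rplp2 (0.58), Rps9 (0.51), Rpl6 (0.47), Rpl27 (0.47) and Rpl19 (0.44) had the next highest log2 ratios. Rpl7 (-0.27), Rpl27a (-0.24), Rpl37a (-0.16) and Rps2 (-0.16) had the lowest.

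LT and 17kT livers were compared directly, without the WT arrays. Of 43 measured members, 36 had higher signals in LT, beside 47.9% of 12542 measured genes. The median log2 ratio of LT over 17kT was 0.39, a 1.31-fold difference, beside -0.03 for all genes, and 21.5% of all genes reached or passed it. At 2-fold, 0 members were higher in LT, beside 4.47% of all genes, and 1 (Rps27) was lower, beside 4.23%. At 1.5-fold, 9 of 43 were higher, a larger share than the 13% of all genes. Those lower were 3 of 43 (Rps27, Rps27l and Rps4l), a smaller share than 13.8%. At 3-fold, 0 were higher, beside 1.08%, and 0 lower, beside 0.686%. The highest log2 ratios belonged to Rpl22 (0.99), Rpl12 (0.92), Rpl8 (0.78), Rpl7l1 (0.75) and Rps3 (0.70). All 3 comparisons rest on the same arrays, each genotype serving in a pair of them, so they are not independent of each other.

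**Figure D3:**
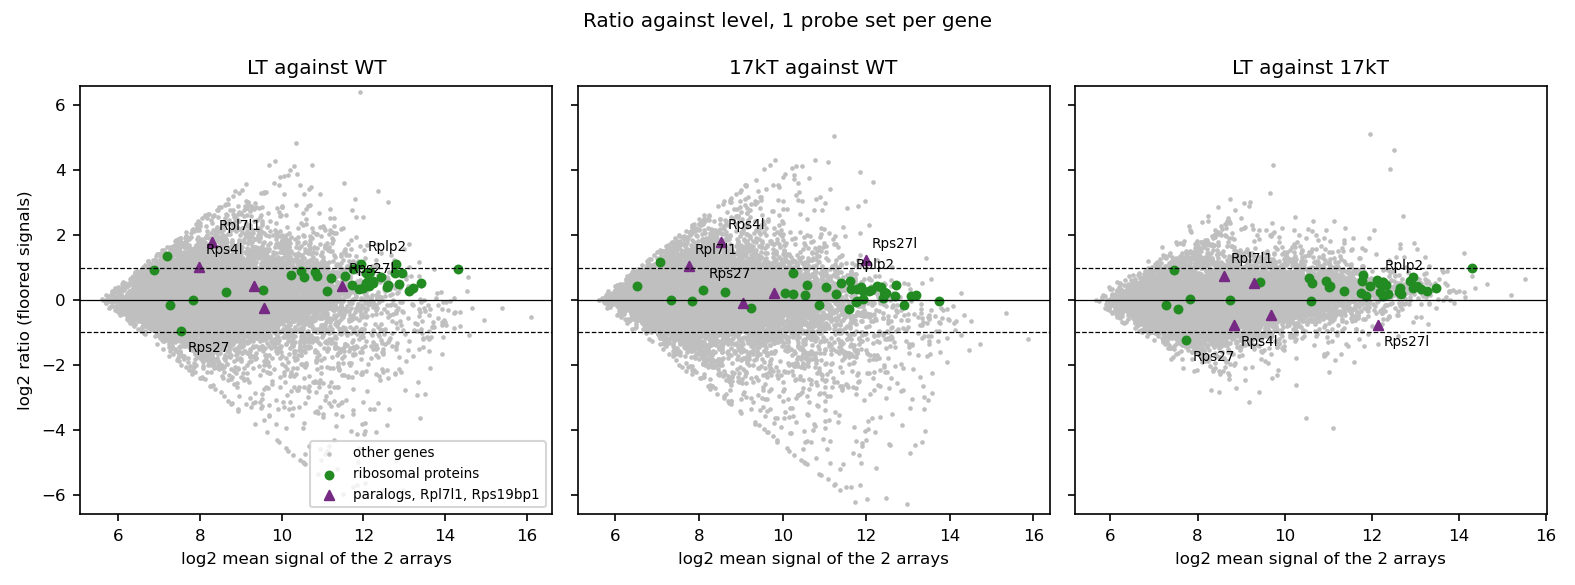
Log2 ratio of floored signals (vertical axis) against log2 mean signal of both arrays (horizontal axis) for 1 probe set per gene, in 3 comparisons of single arrays. Green circles are ribosomal proteins, purple triangles are the paralogs with Rpl7l1 and Rps19bp1, grey points are other genes, and dashed lines mark 2-fold. The triangles of Rps4l and Rps27l lie above the upper line in 17kT against WT and below 0 in LT against 17kT.

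The measured paralogs had another order of genotypes than most of the family. Rps27l encodes a close relative of Rps27, and its human counterpart is known as a gene that p53 switches on and as a protein that binds Mdm2. It had signals of 3302 in LT, 5683 in 17kT and 2438 in WT livers. The 17kT array was the high one, 2.33-fold above WT and 1.72-fold above LT, whereas LT exceeded WT by 1.35-fold. All 3 Rps27l probe sets had this order, with log2 ratios between 1.18 and 1.34 for 17kT over WT, 0.27 and 0.46 for LT over WT, and -1.07 and -0.73 for LT over 17kT. Its relative Rps27 was lowest in LT, and in both genes LT was below 17kT.

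Rps4l, a paralog of Rps4x, had signals of 337.9 in LT, 574.3 in 17kT and 165.5 in WT livers. Among the probe sets that represent members, it had the highest log2 ratio of 17kT over WT, 1.80 or 3.47-fold. It had 1.03 in LT over WT, and rests on 1 probe set. Rps4x itself, with 7265 in LT, 5558 in 17kT and 5264 in WT livers, had log2 ratios of 0.46 for LT over WT and 0.08 for 17kT over WT. So 17kT was the high array for the paralog and LT for the standard gene. Rpl22l1 had signals of 700.01 in LT, 954.1 in 17kT and 821.8 in WT livers, again with 17kT highest. All 3 measured paralogs had lower signals in LT than in 17kT, with log2 ratios of -0.78 for Rps27l, -0.77 for Rps4l and -0.45 for Rpl22l1. Rpl3l, a gene of striated muscle, and Rpl39l, known from testis, were at the floor on every array.

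Rpl22 protein is known in mouse to repress the message of its paralog Rpl22l1. The Rpl22 probe set that represents the gene, on 430B, had signals of 26858 in LT, 13544 in 17kT and 13878 in WT livers, so LT alone was high. On 430A a second Rpl22 probe set had 1202 in LT, 1150 in 17kT and 752.2 in WT livers, with both transgenic arrays high. The remaining one had 121.9 in LT, 284.1 in 17kT and 257.7 in WT livers, with LT low. The 3 probe sets gave log2 ratios of LT over 17kT of 0.99, 0.06 and -1.22, so the direction of Rpl22 between these genotypes depends on the probe set. Ratios of LT over 17kT on 430A also ran below those on 430B by a median of 0.36 over the 100 shared probe sets, which bears on a value taken from 430B.

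The 2 members that are not proteins of the mature ribosome differed from each other. Rpl7l1, which resembles an assembly factor of the large subunit in yeast, had signals of 488.4 in LT, 290.8 in 17kT and 141.8 in WT livers. Its log2 ratios of 1.78 for LT over WT and 1.04 for 17kT over WT were called, and LT was the high array on this probe set. Its other probe sets gave 0.35 and 0.21 for LT over WT and 0.25 and 0.46 for 17kT over WT, in the same direction but far from 2-fold. On 430B its probe set had 428.1 in LT, 510.6 in 17kT and 371.1 in WT livers, with 17kT and not LT highest. Rps19bp1, which binds Rps19, had signals of 738.5 in LT, 518.3 in 17kT and 547.8 in WT livers, with a log2 ratio of 0.43 for LT over WT and LT alone high.

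Rpl41, the smallest ribosomal protein, has 4 probe sets. One of the _x_at kind had signals of 17633 in LT, 11274 in 17kT and 2448 in WT livers, 7.20-fold higher in LT and 4.61-fold higher in 17kT than in WT. Another had 10885 in LT, 5030 in 17kT and 2520.29 in WT livers, 4.32-fold higher in LT than in WT and with a log2 ratio of 0.997 for 17kT over WT. On both, LT was highest and WT lowest, and both ratios of LT over WT exceeded those of every probe set that represents a member. A remaining _x_at probe set had 77.9 in LT, 105.3 in 17kT and 55.0 in WT livers, above the floor in 17kT alone. The non-_x_at probe set of Rpl41 had 50.2 in LT, 74.9 in 17kT and 49.1 in WT livers, all under the floor. Rps24 had 4 _x_at probe sets with log2 ratios of LT over WT between 0.54 and 0.66, and Rps20 had 2 with 0.06 and 0.38. Treating _x_at probe sets like any other gave 46 measured members, with medians of 0.60 for LT over WT, 0.23 for 17kT over WT and 0.38 for LT over 17kT.

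Rps3 also varied between probe sets. On 430B, 1 Rps3 probe set had signals of 953.4 in LT, 765.0 in 17kT and 23.6 in WT livers, under the floor in WT, and so at least 6.79-fold higher in LT and at least 5.44-fold higher in 17kT. The other had 312.5 in LT, 612.3 in 17kT and 755.9 in WT livers, with the order reversed and a log2 ratio of LT over WT of -1.27. Rps9, a small subunit protein, had an _x_at probe set with 99.5 in LT, 1106 in 17kT and 387.9 in WT livers, low in LT, while the probe set that represents it had 3731 in LT, 3185 in 17kT and 2234 in WT livers, high in LT.

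Across all measured probe sets of the family, 80 of 88 had a log2 ratio of LT over WT above 0, as did 73 of 89 for 17kT over WT and 73 of 90 for LT over 17kT. Among 20 genes with at least 2 measured probe sets, 16 had 1 sign throughout for LT over WT, 14 for 17kT over WT and 15 for LT over 17kT. The mixed genes in LT over WT were Rpl22, Rpl37a, Rps3 and Rps9. The SD within a gene was 0.67 for LT over WT, 0.45 for 17kT over WT and 0.57 for LT over 17kT. It exceeded the family's median ratio in each, so the ratio of a single gene read from a single probe set is less certain than the shared direction.

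**Figure D4:**
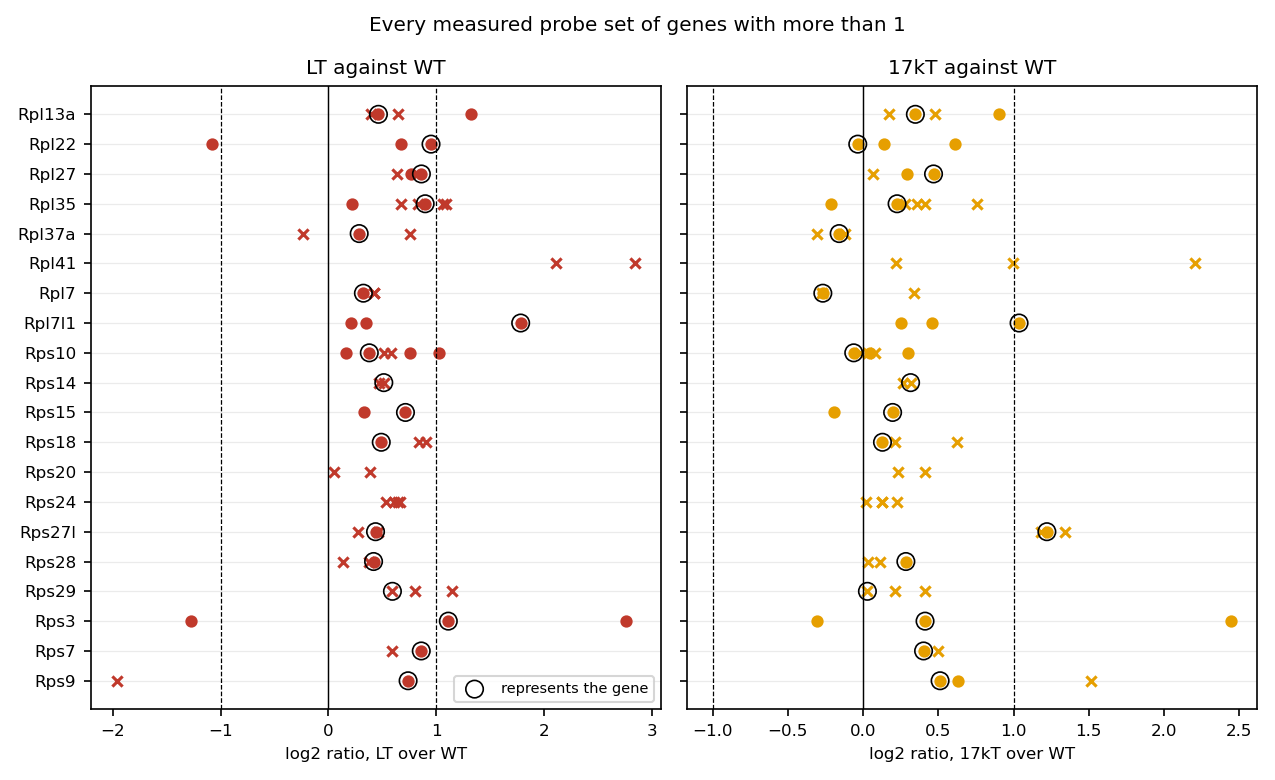
Log2 ratio over WT (horizontal axis) of every measured probe set for the 20 genes with more than 1, for LT on the left and 17kT on the right. Crosses are _x_at probe sets, circles other kinds, rings mark the probe set that represents the gene, and dashed lines mark 2-fold. Rps27l has its 3 probe sets close together, whereas those of Rpl22, Rps3 and Rps9 fall on both sides of 0 in LT against WT.

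Members tied to p53 by their proteins were read as a group. Of 7 measured genes whose proteins form the 5S particle or bind Mdm2 (Rpl11, Rps3, Rps7, Rps14, Rps25, Rps27 and Rps27l), 6 had a log2 ratio of LT over WT above 0, with a median of 0.74 and 1 called higher, beside 11.1% of all genes. For 17kT over WT all 7 were above 0, with a median of 0.40 and 2 called higher (Rps25 and Rps27l), beside 9.97% of all genes. Between LT and 17kT they split, with 4 higher in LT and 3 (Rps25, Rps27 and Rps27l) lower. Of 8 measured genes mutated in human Diamond-Blackfan anaemia, all 8 were above 0 in LT over WT, with a median of 0.71. Of these, 0 were called, beside 11.1% of all genes called higher. Rps26, 1 of these genes, had signals of 2898 in LT, 2385 in 17kT and 1814 in WT livers, with LT highest and WT lowest. Across the whole family, 39 of 43 measured members were above 0 in LT over WT, with a median of 0.59, beside 51.1% of all genes. For 17kT over WT, 34 of 43 members were above 0, with a median of 0.25. The direction of either group in LT over WT was thus that of the family and sets neither group apart.

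Other genes of the translation machinery were compared through lists. Of 18 measured genes for translation factors and related proteins with a TOP message, 17 had a log2 ratio of LT over WT above 0, beside 51.1% of all genes. Their median was 0.44, and 2 were called higher (Hnrnpa1 at 1.53 and Nap1l1 at 1.44), near the 11.1% of all genes. In 17kT over WT, 15 of 18 were above 0, beside 54.8% of all genes, with a median of 0.22. In that comparison 1 (Hnrnpa1, 1.46) was called higher, beside 9.97% of all genes. Eef1a1, the most used elongation factor, had signals of 19353 in LT, 16263 in 17kT and 18490 in WT livers, close to level. Of 24 measured initiation factors and their controls, 3 were called higher in LT over WT, near the 11.1% of all genes. They were Eif3a (1.25), Eif6 (1.20), which keeps the subunits apart during assembly, and Eif4h (1.03). Of 13 genes of mTOR signalling and TOP control, 11 were measured in LT over WT. Of these, 0 were called, beside 11.1% of all genes called higher and 9.01% lower. In 17kT over WT, 1 of 13 was called lower, near the 8.64% of all genes. This was the mTOR inhibitor Deptor, with signals of 1240 in 17kT and 3707 in WT livers.

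Ribosome biogenesis genes, whose products make and assemble ribosomes, had larger median ratios over WT than the ribosomal proteins, but a smaller one in LT over 17kT. Of 35 measured, 15 were called higher in LT over WT, beside 11.1% of all genes, and 0 lower, with a median log2 ratio of 0.89. Rrn3, which recruits RNA polymerase I, had signals of 1080 in LT, 716.4 in 17kT and 305.4 in WT livers, a log2 ratio of 1.82 for LT over WT. Nop56, of the particles that methylate ribosomal RNA, had 546.2 in LT, 608.5 in 17kT and 191.7 in WT livers, with both transgenic arrays high. In 17kT over WT, 4 of 35 biogenesis genes were called higher (Nop56, Nop58, Rrn3 and Tcof1), near the 9.97% of all genes, with a median of 0.50. In LT over 17kT their median was 0.19, below the 0.39 of the ribosomal proteins. The 76 mitochondrial ribosomal protein genes, which build the separate ribosome of that organelle, had medians of 0.08 in LT over WT, 0.09 in 17kT over WT and 0.06 in LT over 17kT, close to those of all genes.

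Other measures moved with the genotypes, and their part in these ratios was not tested. In bulk liver, a change in the number of cells of a type and a change in RNA per cell cannot be told apart. All 7 hepatocyte markers were above the floor on every array, and their summed signal was 142702 in LT, 106258 in 17kT and 220939 in WT livers, so the markers that define the tissue were present but lower in both transgenic livers. All 11 genes of dividing cells were called higher in LT over WT, beside 11.1% of all genes, with a median log2 ratio of 2.96. All 11 were also called higher in 17kT over WT, beside 9.97%, with a median of 3.62. These genes were thus somewhat higher in 17kT than in LT (median -0.34), while the ribosomal protein genes had the opposite order (0.39).

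Among cells other than hepatocytes, T and NK cell markers summed to 721.8 in LT, 704.9 in 17kT and 696.4 in WT livers, with Cd3d, Cd3e, Cd3g, Nkg7 and Gzma at the floor on every array. B cell markers summed to 814.8 in LT, 883.9 in 17kT and 1739 in WT livers, with Cd79b at the floor throughout. Erythroid markers summed to 330.6 in LT, 364.1 in 17kT and 2088 in WT livers, with Hba-a1, Gata1 and 3 others of the 7 at the floor throughout. The difference came mostly from Alas2, with 124.3 in LT, 140.7 in 17kT and 1742 in WT livers. Neutrophil markers summed to 2791 in LT, 2132 in 17kT and 1315 in WT livers, mostly through Lcn2, with Camp at the floor throughout. Kupffer cell markers summed to 11902 in LT, 14887 in 17kT and 13960 in WT livers. Endothelial markers summed to 3318 in LT, 4059 in 17kT and 4318 in WT livers, and stellate markers to 4781 in LT, 6985 in 17kT and 7204 in WT livers. By these sums, LT was the low array for these 3 lists of cells that line or support the sinusoids, but not for every marker. In LT over WT, 2 of 10 Kupffer cell, 3 of 9 endothelial and 1 of 9 measured stellate markers were above 0. In LT over 17kT, 1 of 10, 3 of 9 and 3 of 7 measured markers of the same lists were. Bile duct markers summed to 1264 in LT, 311.2 in 17kT and 294.2 in WT livers, with Krt19, Krt7, Epcam and Sox9 at the floor throughout. The sum in LT came mostly from Prom1 (550.1) and Cd24a (545.4).

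RNA quality and washing also moved with genotype. The ratio of 3′ to 5′ probe set signals of Gapdh was 3.08 in LT, 3.53 in 17kT and 5.81 in WT livers on 430A, and 3.16 in LT, 2.85 in 17kT and 6.04 in WT livers on 430B. For Actb it was 2.52 in LT, 2.13 in 17kT and 2.57 in WT livers on 430A, and 2.50 in LT, 1.72 in 17kT and 2.29 in WT livers on 430B. The WT arrays thus had the highest Gapdh ratio, whereas the Actb ratio put LT and WT near each other. The LT arrays went through fluidics station 2 and the 17kT and WT arrays through station 1, so LT and station cannot be told apart.

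The ribosomal protein genes held 3.86% of the summed signal of the 430A array in LT, 3.18% in 17kT and 2.18% in WT livers, over 100 probe sets. On 430B, with 6 probe sets, the shares were 0.358% in LT, 0.208% in 17kT and 0.189% in WT livers. The order was the same on both designs, but on 430B it rested on few probe sets. Most of the 430B share came from 1 Rpl22 probe set, with signals of 26858 in LT, 13544 in 17kT and 13878 in WT livers. On that probe set 17kT was not above WT. The largest gain in signal of 17kT over WT on 430B was that of an Rps3 probe set, with 765.0 against 23.6. A share of this size depends on what else is on the array, and the size of each ratio depends on how arrays are brought to a common scale. Under 6 scalings, the members' median log2 ratio of LT over WT ran between 0.31 and 0.96, and the median of all measured genes between -0.27 and 0.41. Relative to all genes, the members stood between 0.49 and 0.81 higher in LT than in WT. Between 38 and 42 of them had a log2 ratio over 0, beside between 34.6% and 71.9% of all genes. With scaling to the probe sets on both designs, Rps3, Rplp2 and Rps4l were no longer past 2-fold in LT over WT, at 0.86, 0.86 and 0.78.

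For 17kT over WT the members' median ran between 0.029 and 0.96, and relative to all genes between 0.07 and 0.67. With scaling to probe sets on both designs, 24 of 44 measured members were above 0 in 17kT over WT, beside 46.9% of all genes. With hybridisation controls 44 of 44 were, beside 74.4% of all genes. So the members exceeded all genes in 17kT over WT under each scaling, by an amount that depends on it. For LT over 17kT the members' median ran between 0.034 and 0.55, and relative to all genes between 0.15 and 0.52. With hybridisation controls, 25 of 44 measured members were above 0 in LT over 17kT, beside 39.9% of all genes. The probe set that represents Rps27l was above 2-fold in 17kT over WT under each of the 6 scalings, with log2 ratios between 1.01 and 1.94. Another Rps27l probe set gave 0.977, under 2-fold, with scaling to probe sets on both designs. On the representing probe set, the log2 ratio of LT over 17kT was between -1.13 and -0.62.

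**Figure D5:**
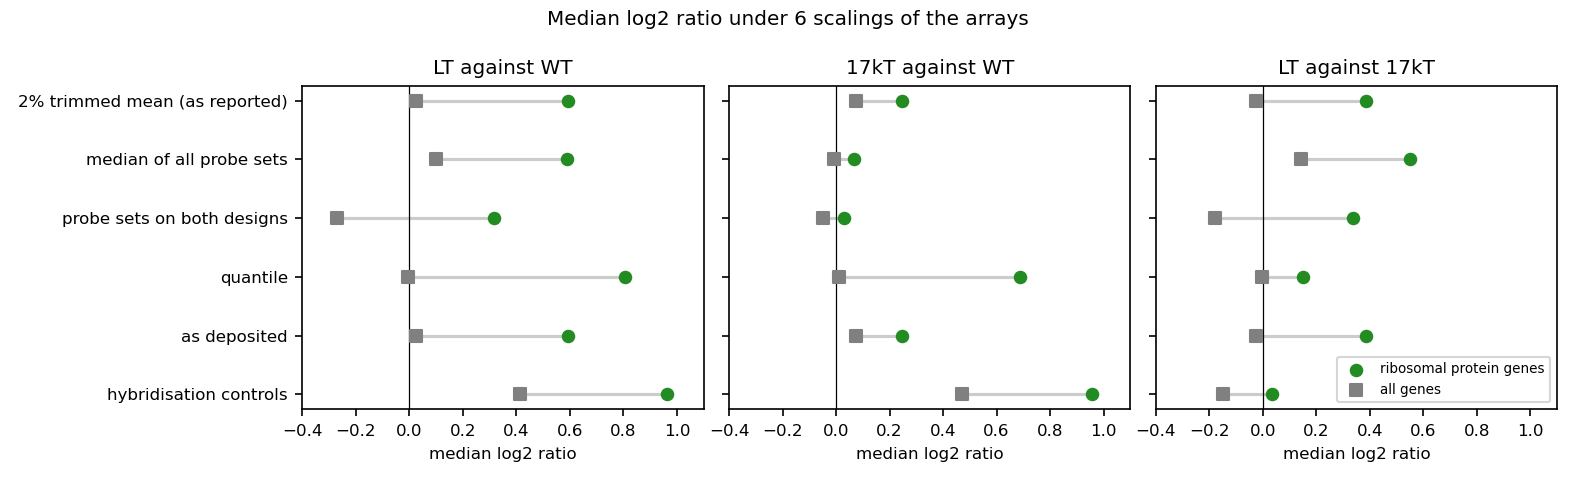
Median log2 ratio (horizontal axis) of ribosomal protein genes (green circles) and of all measured genes (grey squares) under 6 scalings of the arrays, in 3 comparisons. The circle lies right of the square throughout, and the distance is 0.49 to 0.81 in LT against WT, 0.07 to 0.67 in 17kT against WT and 0.15 to 0.52 in LT against 17kT.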

How the data were processed

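Members and lists were chosen with earlier results of these data known. The deposited signal intensities, linear and 1 per probe set, were made by the authors with MAS5, per the submitters' processing notes (no version given). Settings files, also deposited by the authors, name the fluidics station of each array. RNA was extracted with RNA STAT-60, per the labels.

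Signals were scaled within a design to a common 2% trimmed mean, floored at the design's median, and compared as log2 ratios within a design, so a ratio near the floor understates a difference. Where a gene had several probe sets, the one highest over the floor on average stood for it, and _x_at served only for lack of others. Symbols came from the platform annotation. All 50 were found in RefSeq, and 0 had changed. With 1 array per group no test was run and differences were called at 2-fold. Genes named were those with the 10 highest and 10 lowest ratios per comparison, called members, a list of well studied members, and list genes past 2-fold. Also named were the 5 highest and 5 lowest in WT and, after their values were seen, Rps15, Rps20, Rps28 and Eef1a1. The code (Python 3.11.15, pandas 2.3.3, numpy 2.4.6) was tested on simulated signals. Alternatives were other scalings, floors, folds and choices of probe set.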

Additional observations from a re-analysis of the deposited data

How the results depend on the processing

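No paired analysis was possible because each genotype had 1 array per design. The cause of the shifts below was not tested beyond what each setting changes by construction. The members' median kept its direction under every alternative run, whereas that of all genes, near 0 as reported, changed sign under several, for example to -0.27 in LT against WT with scaling to probe sets on both designs. Of the counts and medians recomputed under alternatives, 105 values stayed within the limits set for them (1.5 times for a count) and 33 did not. In LT against WT, 5 of 43 members were called higher as reported, beside 11.1% of all genes. Scaling to probe sets on both designs gave 2 of 44, beside 6.18%. Quantile normalization gave 11 of 44, beside 9.68%, and hybridisation controls 20 of 43, beside 22.1%. With the floor at the 75th percentile there were 2 of 38, beside 9.43%. At 1.5-fold there were 22 of 43, beside 23.1%, and at 3-fold 1 of 43, beside 3.79%. On 430B alone there was 1 of 4, beside 10.7%. Without paralogs and non-ribosomal genes there were 3 of 38, beside 11.1%. The number lower, 0 as reported, was 1 with the probe sets on both designs, beside 2161 of 12907 genes. It was 1 with quantile normalization, beside 1132 of 12919 genes, and 1 at 1.5-fold, beside 2562 of 12776 genes. The median log2 ratio, 0.59 as reported, was 0.31 with the probe sets on both designs and 0.96 with hybridisation controls. In 17kT against WT, 4 of 43 were higher as reported, beside 9.97% of all genes, and 19 of 44 with hybridisation controls, beside 24.9%. With the floor at the 75th percentile there were 2 of 39, beside 6.6%. With the floor as a pseudocount there were 2 of 43, beside 6.69%. At 3-fold there was 1 of 43, beside 3.36%, and on 430B alone 1 of 4, beside 7.97%. Without paralogs and non-ribosomal genes there was 1 of 38, beside 9.97%. The median, 0.25 as reported, was 0.067 with scaling to the median of all probe sets, 0.029 with the probe sets on both designs, 0.69 with quantile normalization and 0.96 with hybridisation controls. In LT against 17kT, 0 of 43 were higher as reported, beside 4.47% of all genes. Scaling to the median of all probe sets gave 2 of 43, beside 6.94%. Hybridisation controls gave 1 of 44, beside 7.28%, and at 1.5-fold there were 9 of 43, beside 13%. The number lower, 1 as reported, was 2 with quantile normalization, beside 441 of 12516 genes. It was 3 with hybridisation controls, beside 734 of 13122, and 3 at 1.5-fold, beside 1734 of 12542. With the mean over probe sets it was 2, beside 437 of 12696. It was 0 with the floor at the 75th percentile (155 of 7790 genes) and with the floor as a pseudocount (311 of 12542 genes). It was also 0 at 3-fold (86 of 12542 genes) and on 430B alone (406 of 6654 genes). The median, 0.39 as reported, was 0.034 with hybridisation controls. Over all genes, the calls in LT against WT were 1418 higher and 1151 lower as reported, 798 and 2161 with the probe sets on both designs, and 2768 and 572 with hybridisation controls. In 17kT against WT they were 1296 and 1123, 1062 and 1411, and 3245 and 643 under the same settings. In LT against 17kT they were 561 and 530 as reported, 290 and 1106 with the probe sets on both designs, and 868 and 316 with scaling to the median. Among single genes, Rpl22 in LT against 17kT ran between -0.06 and 1.34, Rpl7l1 in LT against WT between 0.21 and 2.15, and Rps27 in LT against 17kT between -1.59 and -0.11. Signal over background limits Rps27, Rps25, Rpl12, Rps4l, Rps6 and Rpl39, which lie near the floor.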
